A study of Mus musculus with 6 samples.

Results

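Natural killer (NK) cells of the same labelled subset differed between the 2 arrays of that subset, and some of the differences recurred in all 3 subsets. This division of the arrays is described here. The side of each array was thus not set by the labels but chosen by measured values, the mean of 3 probe sets without a gene name in the array annotation (1433438_x_at, 1456182_x_at and 1456456_x_at). Arrays with a mean above 8 on the log2 scale are called on arrays, and the others off arrays. The on arrays were replicate 2 of CD27+CD11b-, replicate 2 of CD27+CD11b+ and replicate 1 of CD27-CD11b+, and the off arrays were the other 3, so that all 6 arrays of the series enter and each subset holds 1 of each kind. Every on array was compared with the off array of its own subset over the 34945 probe sets with 1 gene symbol, of 45101 in all.

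All samples were splenic cells with the NK1.1 antigen from RAG-/- mice, in which antigen receptor genes are not rearranged and mature T and B lymphocytes are missing; NK1.1 is the surface antigen that marks NK cells in some mouse strains. Sorting by flow cytometry gave cells with CD27 and without CD11b (CD27+CD11b-), cells with both (CD27+CD11b+) and cells with CD11b alone (CD27-CD11b+), with 2 arrays of total RNA each. The RAG gene deleted, the strain, sex and age of the mice, and the number of animals behind each sample are not given in the labels used here. Nothing there ties the division to a treatment, a day or an animal.

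NK cells are innate lymphocytes that kill infected or transformed cells with perforin and granzymes and secrete interferon gamma. CD27+ NK cells in the spleen are known to divide more than CD27- cells. In the spleen they lie among red pulp macrophages, which clear old red blood cells and recycle their iron, and among monocytes and neutrophils, whose transcripts can accompany a sort. Handling of lymphocytes is known to induce immediate early genes such as Fos and Jun within minutes.

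Because the arrays were divided by values measured on them, every on minus off difference below is a description without a test. With 3 pairs, an exact two-sided sign-flip test could not go below p = 0.25. Levels are log2 RMA values of the authors, listed by subset (CD27+CD11b-, then CD27+CD11b+, then CD27-CD11b+), and differences are means of the 3 within-subset differences with their SD (n = 3 pairs). A gene is called above background when its mean over the on or the off arrays exceeds 6.67, the 95th percentile of 56 genes of other tissues. Precision is limited by the number of arrays. The title of CD27-CD11b+ replicate 1, an on array, names CD11b+ CD27- cells, while its sort description names the CD27+ CD11b- gate. By its title it is grouped here. Its Cd27 value was 6.96 and its Itgam (CD11b) value 9.93, against 6.47 and 9.44 in the off array of that subset. In CD27+CD11b- they were 8.78 and 6.37 in the off array and 8.03 and 5.88 in the on array. On minus off, Cd27 differed by -0.75, -0.71 and 0.49 in the 3 subsets and Itgam by -0.48, -0.67 and 0.49. Counts without the CD27-CD11b+ pair are given beside the main ones.

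The 3 probe sets of the rule were at opposite ends of the scale and nothing lay between. Probe set 1433438_x_at was 4.79, 4.83 and 4.84 in off arrays and 12.79, 12.92 and 12.94 in on arrays. Probe set 1456182_x_at was 4.23, 4.21 and 4.20 in off arrays and 12.51, 12.86 and 12.56 in on arrays. The third, 1456456_x_at, was 4.12, 4.36 and 3.96 against 12.41, 12.65 and 12.32. These values are what divided the arrays. The off array nearest to the threshold had a mean of 4.47 and the on array nearest to it a mean of 12.57. No other probe set of the array came close: these 3 alone differed by more than 3 log2 units in every subset, and the next was Tanc1, whose smallest difference was 2.41 in size.

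**Figure D1:**
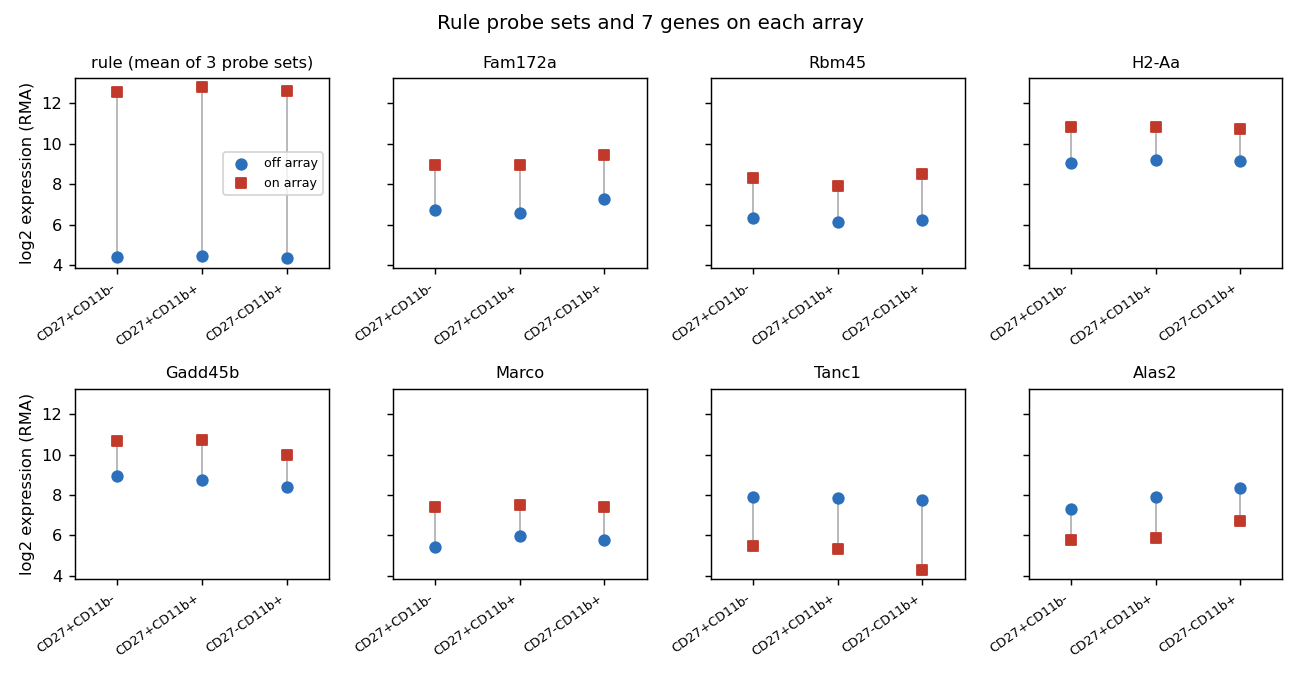
Log2 RMA expression (y axis) on each of the 6 arrays for the mean of the 3 probe sets of the rule and for 7 genes, by subset (x axis). Blue circles are off arrays, red squares are on arrays, and a grey line joins the 2 arrays of a subset. The rule's mean lies between 4.33 and 4.47 in off arrays and between 12.57 and 12.81 in on arrays, while the genes differ by 1.68 to 2.79 log2 units on average, across Gadd45b, H2-Aa, Marco, Alas2, Rbm45, Fam172a and Tanc1.

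Beyond these probe sets, myeloid and stress-response genes were higher in on arrays, genes of cell division were lower, and a few genes of other kinds differed as sharply. A probe set was counted when the on array was at least 2-fold apart from the off array in the same direction in all 3 subsets and its higher side lay above background. That held for 42 of 34945 named probe sets in the higher direction, 0.12% of those compared, and for 6 in the lower direction, 0.0172%. Without the CD27-CD11b+ pair the counts were 114 and 70. With 1 probe set per gene, 33 of 18193 genes (0.181%) were higher and 4 (0.022%) lower in on arrays. The genes nearest to the 2-fold limit were Marcksl1, just inside it, and App, at 0.99, in the higher direction, and Pclaf at -1.09 and Mki67 at -0.91 in the lower. Of the 33 higher genes, 12 belong to the macrophage, neutrophil, dendritic cell or class II lists, 3 to the immediate early and heat shock list and 18 to none of these. Of all genes, the monocyte and macrophage list holds 0.132%, the red pulp macrophage list 0.066% and the neutrophil list 0.071%. The dendritic cell list holds 0.071%, the class II list 0.060% and the immediate early and heat shock list 0.170%. These lists were written with earlier results of these data known. Probe sets whose names end in _x_at, _s_at or _a_at, which can match several transcripts, made up 41.7% of the 48 and 22.8% of all named probe sets.

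The differences were shared more widely between the CD27+ subsets than with CD27-CD11b+. Across 8023 genes above background, the differences in CD27+CD11b- and in CD27+CD11b+ correlated at r = 0.731. The r of CD27+CD11b- with CD27-CD11b+ was 0.282, and of CD27+CD11b+ with CD27-CD11b+ 0.140. These are correlations across genes, which are not independent replicates, and the pairs share no array. The sizes of the differences were alike, with an SD over these genes of 0.35, 0.38 and 0.35 in the 3 subsets. Of the sum of squares of these genes over the 6 arrays, 60.7% lay between subsets, 23.7% between on and off arrays and 15.6% in the remainder. The median difference over all genes was -0.04, -0.04 and 0.11 in the 3 subsets, so a shift of that size in CD27-CD11b+ is shared by the typical gene.

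**Figure D2:**
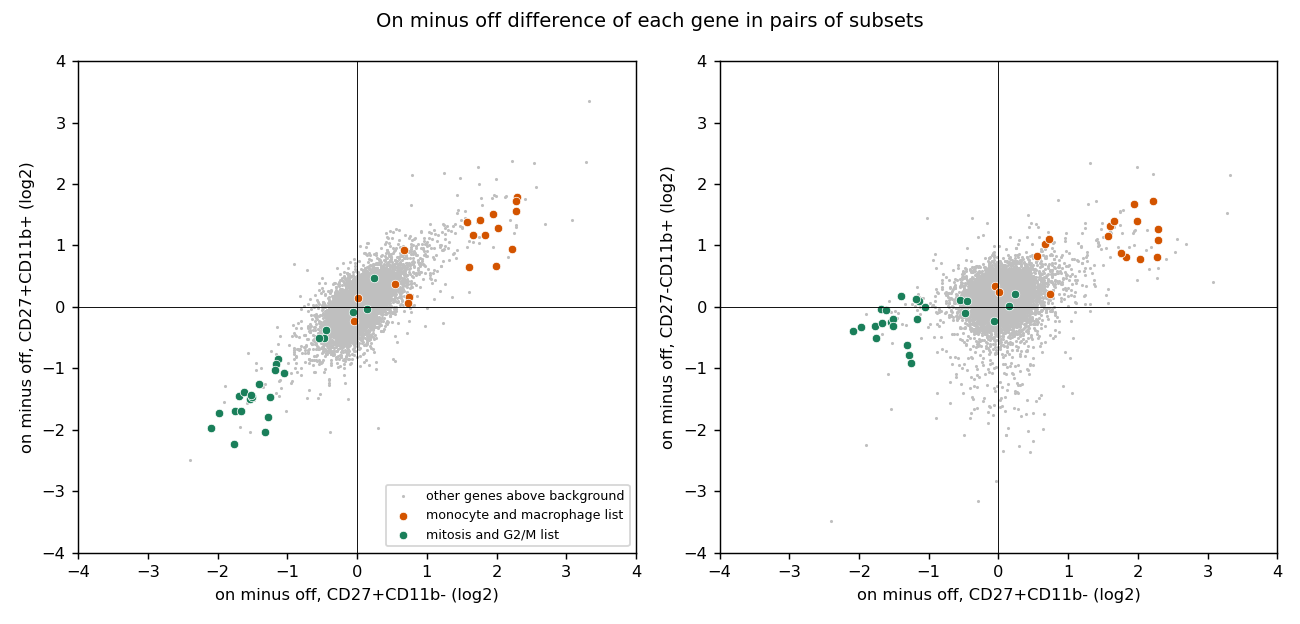
On minus off difference (log2) of each gene above background in CD27+CD11b- (x axis of both panels) against CD27+CD11b+ (left, y axis) and against CD27-CD11b+ (right, y axis). Grey points are single genes, orange points the monocyte and macrophage list and green points the mitosis and G2/M list. Points follow the diagonal on the left (r = 0.731) and much less on the right (r = 0.282), where most green points lie near 0 on the y axis.

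Some of the sharpest differences were in genes with no place in any of the lists. Fam172a was 6.73, 6.59 and 7.28 in off arrays and 8.95, 8.96 and 9.44 in on arrays, a mean difference of 2.25 ± 0.11 or 4.76-fold. Its 3 differences thus hardly varied between subsets. Rbm45, which encodes an RNA-binding protein, was 6.32, 6.12 and 6.22 in off arrays and 8.32, 7.92 and 8.50 in on arrays (2.03 ± 0.24). Tanc1, a scaffold protein best known from synapses, went the other way, from 7.88, 7.83 and 7.76 in off arrays to 5.47, 5.35 and 4.27 in on arrays, a difference of -2.79 ± 0.60. It was thus at one level in all off arrays and below background in every on array. Mid1, a microtubule-binding ubiquitin ligase, was 8.96, 8.74 and 7.52 in off arrays and 7.06, 7.45 and 5.28 in on arrays (-1.81 ± 0.48). In these 4 genes the on and off arrays did not overlap, a pattern found in 8.29% of genes in the higher and 4.62% in the lower direction.

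Other probe sets of these genes did not always repeat the difference. A second Fam172a probe set, below background at 5.38 (off mean) and 4.19 (on mean), differed by -0.31, -0.77 and -2.50. A second Tanc1 probe set, also below background, differed by -0.41, -1.25 and -1.17, in the direction of the first. Both other Mid1 probe sets lay below background, with means of 4.36 and 4.19 in off arrays. Fscn1, which bundles actin filaments and is prominent in mature dendritic cells, is another gene whose differences were large in every subset. It was 4.77, 4.94 and 6.21 in off arrays and 8.09, 8.29 and 8.35 in on arrays (2.94 ± 0.69) on probe set 1416514_a_at. On 1448378_at, the other Fscn1 probe set above background, its means were 6.60 and 6.70 and its difference 0.11. The value of Fscn1 therefore rests on 1 of its 4 probe sets.

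Macrophage and monocyte genes were higher in on arrays of every subset. Of 24 measured members of the list, 22 were higher in all 3 subsets, 5 of them at least 2-fold, against 20.7% of all genes higher in all 3 subsets. The list's median difference was 1.04, with 1.27, 0.80 and 0.95 in the 3 subsets, beside -0.00043 over all genes. Marco, a scavenger receptor of splenic macrophages, was 5.44, 5.99 and 5.75 in off arrays and 7.39, 7.50 and 7.42 in on arrays (1.71 ± 0.22). Mrc1, the mannose receptor, was 4.55, 5.97 and 5.54 against 6.84, 7.53 and 6.81. Adgre1, which encodes the macrophage antigen F4/80, was 6.18, 7.20 and 6.97 in off arrays and 7.84, 8.37 and 8.37 in on arrays. Each of these genes was therefore separated completely between on and off arrays. Csf1r, the receptor for macrophage colony-stimulating factor, was 8.41, 9.44 and 9.27 in off and 10.44, 10.72 and 10.05 in on arrays. Another Csf1r probe set, 1419873_s_at, differed by 1.80, 1.05 and 1.31. On 1423593_a_at, also above background with means of 6.86 (off) and 7.04 (on), Csf1r differed by only 0.24, 0.11 and 0.19, and on and off arrays overlapped. Cd14, the lipopolysaccharide co-receptor, differed by 1.37 ± 0.21. C1qa, a complement chain made by tissue macrophages, was 5.29, 6.66 and 6.53 in off arrays and 6.90, 7.30 and 7.84 in on arrays. Csf1r, Adgre1 and C1qa were thus not at background in on arrays, and Csf1r and Adgre1 were above it in most off arrays too. Cd14 was 6.94, 7.24 and 6.66 in on arrays, the last just below background. The summed level of the list, as log2 of the sum of linear values, ranged from 13.83 to 14.16 in off arrays and from 14.28 to 14.55 in on arrays. In bulk RNA, more cells of a type and more RNA per cell cannot be told apart.

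Genes of the splenic red pulp macrophage and of neutrophils went with them. Of 12 measured red pulp macrophage genes, 10 were higher in all 3 subsets, beside 20.7% of all genes, with a median difference of 0.74. Only 4 of the 12 were above background. Cd5l, a protein secreted by macrophages, was 5.62, 6.27 and 6.29 in off arrays and 7.11, 7.69 and 7.66 in on arrays (1.42 ± 0.06). Slc40a1, the iron exporter ferroportin, was 6.61, 8.05 and 8.07 against 9.30, 9.40 and 9.10. For both genes the off array of CD27+CD11b- lay below the other 2 off arrays, and for Cd5l its on array was the lowest on array too. Hpgd differed by 1.20. Treml4 differed by 1.53 but was a dim gene, with subset means of 5.41, 6.11 and 5.78, below background. Hmox1, the haem-degrading enzyme, differed by 0.06 and also stayed below background. Of 13 neutrophil genes, 10 were higher in all 3 subsets (median 0.60), beside 20.7% of all genes. Only 6 of the 13 were above background. S100a9, a subunit of calprotectin, was 6.21, 6.89 and 7.52 in off arrays and 8.18, 8.71 and 8.78 in on arrays, and S100a8, its partner, differed by 1.65 ± 0.82. The granule genes Ngp, Lcn2 and Ltf differed by 1.42, 1.20 and 1.41. Mpo and Elane, granule enzymes of neutrophil precursors, were below background on all arrays.

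Among the class II genes, H2-Aa, H2-Ab1 and H2-Eb1 were higher in on arrays and H2-Ea was lower. H2-Aa, the alpha chain of the class II molecule I-A, was 9.03, 9.19 and 9.14 in off arrays and 10.82, 10.85 and 10.72 in on arrays, a difference of 1.68 ± 0.11 or 3.19-fold. H2-Ab1, the beta chain of I-A, differed by 1.34 ± 0.30, and H2-Eb1, the beta chain of I-E, by 1.16 ± 0.19. H2-Ea, its alpha chain, was slightly lower in on arrays, at 7.54, 7.64 and 7.27 against 7.995, 8.13 and 7.80 in off arrays. The class II list of 11 measured genes had a median of 0.30. In all 3 subsets 4 members were higher and 1 lower, beside 20.7% and 13.9% of all genes. The other members, among them the invariant chain Cd74, the transactivator Ciita and H2-DMa, did not keep 1 sign or differed less. Cd74 differed by 0.97, -0.31 and 1.20 in the 3 subsets. Among 13 dendritic cell markers, 4 were higher and 3 lower in all 3 subsets, beside 20.7% and 13.9% of all genes. Their median was 0.09. Cd83, a marker of mature dendritic cells that activated lymphocytes also carry, was 6.36, 5.97 and 5.22 in off arrays and 8.93, 7.93 and 6.33 in on arrays, so its on and off arrays overlapped although all 3 differences exceeded 2-fold. Xcr1 and Cd209a, which mark dendritic cell subsets, were below background on all 6 arrays.

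Genes of the immediate early and heat shock responses were higher in on arrays by nearly the same amount in every subset. Of 31 measured members, 24 were higher and 0 lower in all 3 subsets, beside 20.7% and 13.9% of all genes, and 11 were higher with no overlap between on and off arrays, beside 8.29% of all genes. The list's median was 0.51, 0.45 and 0.44 in the 3 subsets. Gadd45b, a stress-induced regulator of growth arrest, was 8.91, 8.73 and 8.41 in off arrays and 10.66, 10.74 and 9.97 in on arrays (1.77 ± 0.22). Hspa1b, a heat-inducible HSP70 chaperone, was 5.75, 5.36 and 6.89 against 7.49, 7.65 and 8.43 (1.86 ± 0.38), and Atf3, a stress-induced transcription factor, differed by 1.23 ± 0.16. The AP-1 subunit Fosb differed by 1.16 ± 0.40 and the transcription factor Egr2 by 0.86 ± 0.09. Fos itself, already at 13.22 to 13.33 in off arrays, differed by 0.35 ± 0.08. All members named in this paragraph had higher values in each on array than in each off array. Macrophage genes moved with the same division, and their part in the stress genes was not tested.

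Further genes were named for the size of their differences, some of them in the homing list. In that list 7 of 24 members were higher and 7 lower in all 3 subsets, beside 20.7% and 13.9% of all genes. The list's median was -0.09. The lower members were Cxcr3, Itga4, Cd44, Itgb7, Itgb1, S1pr5 and Itgal, of which Cxcr3, a chemokine receptor, had the largest smallest difference at -0.36. Of the higher members, Cd69, a surface antigen of early lymphocyte activation, was 9.49, 9.84 and 9.41 in off arrays and 10.97, 11.15 and 10.67 in on arrays (1.35 ± 0.11). Pim2, a survival kinase, was 8.47, 8.56 and 7.50 against 9.78, 9.81 and 9.84, so that the off array of CD27-CD11b+ was the low one. The chemokine receptor Cxcr4 differed by 1.34 ± 0.29 and the nuclear NF-kappa-B regulator Nfkbid by 1.40 ± 0.21. The transcriptional repressor Tgif1 differed by 1.58 ± 0.32. Itgae, the integrin chain CD103, differed by 1.33 ± 0.25, but its second probe set, also above background, by 0.39. Adgre4, an adhesion receptor of myeloid cells, differed by 2.39 ± 0.88, and Fpr2, a formyl peptide receptor of phagocytes, by 1.64 ± 0.39. Lpl (lipoprotein lipase), Fabp5 (a fatty acid binding protein), Tgfbi, Alox5ap (which activates leukotriene synthesis) and Hfe (a regulator of iron uptake) differed by 1.56, 1.60, 1.73, 1.41 and 1.42. Ifitm1, an interferon-inducible membrane protein, differed by 1.49 ± 0.21, while the type I interferon list as a whole had a median of 0.06. Of 27 members in that list 8 were higher and 2 lower in all 3 subsets, beside 20.7% and 13.9% of all genes.

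**Figure D3:**
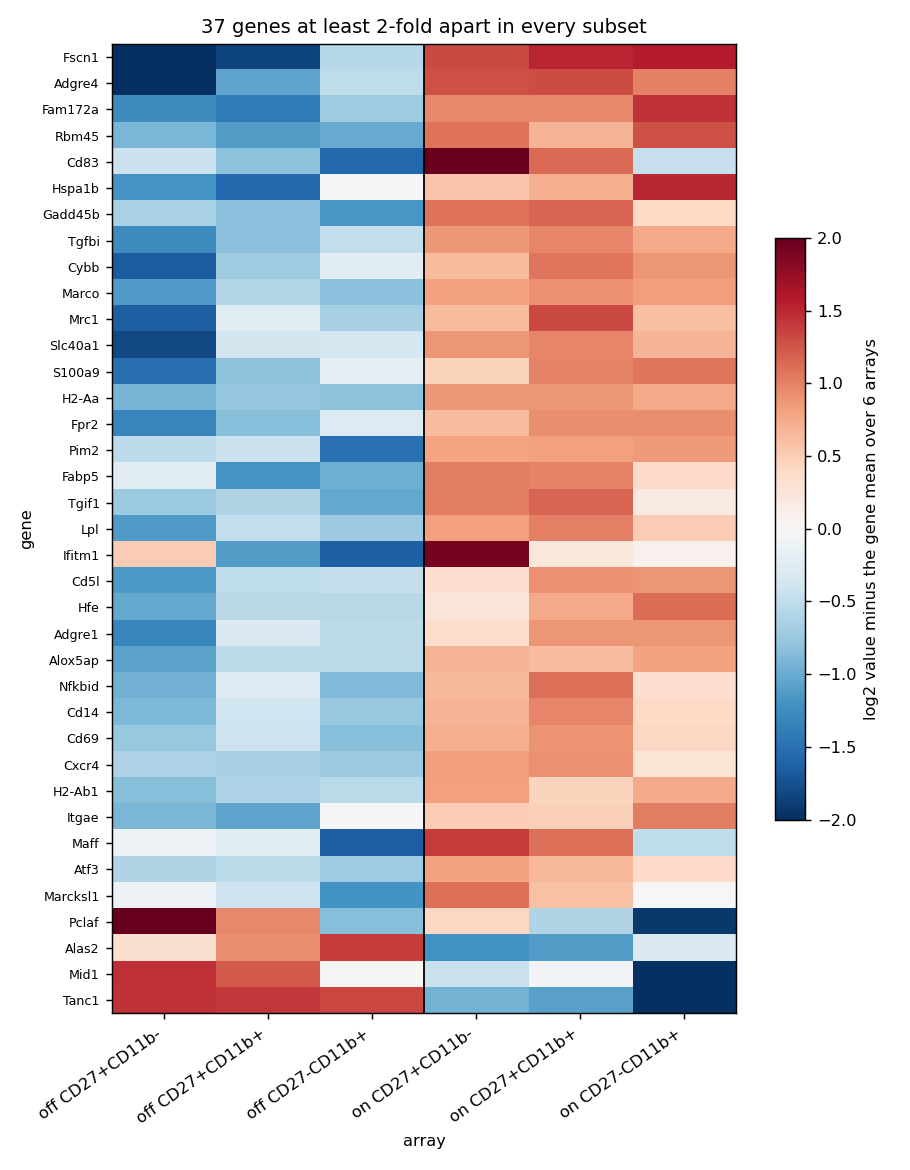
The 37 genes at least 2-fold apart in the same direction in every subset (rows) on each of the 6 arrays (columns, off arrays left of the line and on arrays right of it). Colour is the log2 value minus the gene's mean over the 6 arrays, with values beyond 2 in size drawn in the end colours; 33 genes are higher and 4 lower in on arrays, and the colours of Pclaf, Maff, Cd83 and Ifitm1 also vary between the arrays of 1 side.

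Cell division genes were lower in on arrays, mainly in the CD27+ subsets. Of 37 measured genes of mitosis and G2/M, 27 were lower and 1 higher in all 3 subsets, beside 13.9% and 20.7% of all genes. By their brightest probe sets 0 were at least 2-fold lower in every subset, beside 0.022% of all genes. Only 2 were lower with no overlap between on and off arrays, beside 4.62% of all genes. The list's median difference was -1.29, -1.38 and -0.20 in the 3 subsets. Mki67, the proliferation antigen Ki-67, was 11.47, 10.77 and 8.54 in off arrays and 10.22, 9.30 and 7.64 in on arrays (-1.21 ± 0.28). Cyclin A2 (Ccna2) was 8.92, 8.51 and 6.24 against 7.63, 6.71 and 5.45, and cyclin B2 (Ccnb2) 8.89, 8.54 and 6.10 against 7.57, 6.50 and 5.47. In all 3 genes the on array of a subset lay below its off array, and both CD27-CD11b+ arrays lay low. For Ccna2 and Ccnb2 that subset was below background on both arrays. The part of the background level in the smaller differences of that subset was not tested. Top2a, the topoisomerase of dividing cells, differed by -1.52, -1.44 and -0.31 and Birc5 (survivin) by -1.76, -2.22 and -0.30. Pclaf, a partner of the replication clamp PCNA, was 10.29, 9.24 and 7.43 in off and 8.70, 7.68 and 6.35 in on arrays, and on this probe set it was at least 2-fold lower in all 3 subsets. The 6 lower probe sets held 2 more of cell division, chosen after their values were seen. For Dtl, which helps degrade replication factors, 1430228_at was 8.37, 8.20 and 7.63 in off arrays and 7.09, 7.03 and 6.42 in on arrays (-1.22 ± 0.06), while its brightest probe set differed by -0.69, -0.69 and -1.57. For Incenp, a subunit of the chromosomal passenger complex, 1439252_at differed by -1.09, -1.01 and -1.01, while its brightest probe set differed by -0.59, -0.49 and -0.15.

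The replication genes differed less. Of 32 measured members, 11 were lower and 2 higher in all 3 subsets, beside 13.9% and 20.7% of all genes, and the medians were -0.51, -0.50 and 0.05. Tk1, thymidine kinase, was 7.63, 7.13 and 5.58 in off arrays and 6.10, 5.65 and 5.0003 in on arrays, and the ribonucleotide reductase subunit Rrm2 differed by -0.94 ± 0.38. The helicase subunit Mcm6 differed by -0.15 ± 0.22 and the loading factor Cdt1 by 0.22 ± 0.18. Since many mitosis genes moved together, promoters are shown for Mki67, Ccnb2 and Nusap1 of that list and for Pclaf, which is in no list, as the bases before the RefSeq start in GRCm38.p6, 5' to 3' on the gene's strand, with matches on either strand to TTTGAA (the core of the cell cycle homology region) and to CCAAT (the box bound by NF-Y) in capitals. Mki67 lies at chr7:135716380-135716629 on the minus strand, Ccnb2 at chr9:70421555-70421804 on the minus strand, Nusap1, a spindle protein, at chr2:119618048-119618297 on the plus strand and Pclaf at chr9:65890073-65890322 on the plus strand.
Mki67: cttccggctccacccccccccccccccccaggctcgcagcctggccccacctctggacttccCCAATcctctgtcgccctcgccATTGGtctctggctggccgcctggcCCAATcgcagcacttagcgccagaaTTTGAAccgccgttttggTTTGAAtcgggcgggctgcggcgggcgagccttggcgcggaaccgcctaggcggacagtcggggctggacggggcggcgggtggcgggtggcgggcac
Ccnb2: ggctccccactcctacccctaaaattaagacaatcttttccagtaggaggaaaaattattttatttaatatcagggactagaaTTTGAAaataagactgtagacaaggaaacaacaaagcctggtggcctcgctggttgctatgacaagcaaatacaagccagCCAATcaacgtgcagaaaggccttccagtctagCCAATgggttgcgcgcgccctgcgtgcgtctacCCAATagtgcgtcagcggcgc
Nusap1: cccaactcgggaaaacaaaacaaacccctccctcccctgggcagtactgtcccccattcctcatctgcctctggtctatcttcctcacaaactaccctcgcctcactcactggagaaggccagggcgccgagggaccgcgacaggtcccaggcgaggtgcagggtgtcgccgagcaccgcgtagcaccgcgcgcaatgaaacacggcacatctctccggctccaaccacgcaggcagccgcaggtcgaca
Pclaf: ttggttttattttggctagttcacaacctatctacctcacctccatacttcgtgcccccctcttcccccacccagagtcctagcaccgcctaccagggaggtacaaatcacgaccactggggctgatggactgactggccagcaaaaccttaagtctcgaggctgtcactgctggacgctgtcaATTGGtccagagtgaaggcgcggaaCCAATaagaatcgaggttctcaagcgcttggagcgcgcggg
The Mki67 window holds 2 TTTGAA and 3 CCAAT matches, that of Ccnb2 1 and 3, that of Pclaf 0 and 2, and that of Nusap1 0 of either. Over whole windows, which run 50 bases past the start, TTTGAA was found in 26 of 35 windows of the mitosis list (74.3%), against 17.9% of all 32851 windows, and CCAAT in 80.0% against 37.4%. In the replication list the shares were 9.09% and 54.5%. A match is a description of the sequence only.

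Many of the lower genes of the CD27+ subsets were of the cell division lists. In both CD27+ subsets 76 genes (0.418%) were at least 2-fold higher and 50 (0.275%) at least 2-fold lower in on arrays. Of the 50 lower genes, 25 belong to the mitosis or replication list, which hold 0.379% of all genes, and of the 76 higher genes 16 belong to the 2 macrophage lists or the neutrophil list, which hold 0.269%. In CD27-CD11b+, which the choice did not use, 74 of the 76 higher genes were higher as well, beside 68.2% of all genes, with a median difference of 0.97, and 33 of them by at least 2-fold. Of the 50 lower genes, 36 were lower in CD27-CD11b+, beside 31.8% of all genes, with a median of -0.21, and 4 by at least 2-fold: Tanc1, Mid1, Alas2 and Pclaf.

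Some red blood cell genes were lower in on arrays. Alas2, the erythroid enzyme that begins haem synthesis, was 7.30, 7.91 and 8.36 in off arrays and 5.77, 5.87 and 6.70 in on arrays (-1.75 ± 0.26). Slc4a1, the anion exchanger of red cells, was 7.14, 6.70 and 8.07 against 6.45, 5.85 and 6.86, and Bpgm, which makes the red cell regulator bisphosphoglycerate, differed by -0.87 ± 0.22. A probe set shared by several beta globin genes was 13.60, 13.47 and 14.11 in off arrays and 11.99, 11.91 and 13.06 in on arrays. Of 12 measured erythroid markers 5 were lower and 0 higher in all 3 subsets, beside 13.9% and 20.7% of all genes, but only 4 were above background, and the median was -0.14. These erythroid genes and the macrophage genes thus differed in opposite directions.

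NK receptor and granule genes had small median differences. Ncr1, the NK receptor NKp46, lay between 9.998 and 10.90 in off arrays and between 9.84 and 10.95 in on arrays, with differences of -0.16, -0.71 and 0.04. Of 24 measured NK receptors 3 were higher and 4 lower in all 3 subsets, with a median of -0.06, and of 24 granule genes and death ligands 10 were higher and 2 lower, with a median of 0.09. Over all genes 20.7% were higher and 13.9% lower in all 3 subsets. Fasl, a death ligand, was the granule list member with the largest smallest difference, at 0.67. Eomes, Klrd1, Nkg7 and Prf1 were above 11 on all 6 arrays, whereas Cd3e and Cd79a, which define T and B cells, lay below background on all 6. Other T and B lineage transcripts were above it, with 5 of 13 measured members of the T cell list and 3 of 14 of the B cell list. Cd3d had subset means of 7.92, 7.04 and 5.53, and Ighm of 10.98, 10.94 and 10.14. The B cell list had a median of -0.01 and the T cell list one of -0.10. Of the Y chromosome gene Eif2s3y and Xist, the first lay between 9.91 and 10.25 on all 6 arrays and the second between 5.06 and 5.79. Among 6 measured genes of the Y chromosome and Xist, 0 were higher and 2 lower in all 3 subsets, none by 2-fold. For 1 of the 2 the on and off arrays did not overlap, beside 4.62% of all genes. Only 2 of the 6 were above background. Of 8 measured genes known to vary among inbred mouse strains, 5 were higher and 2 lower in all 3 subsets, none by 2-fold. Erdr1, a gene of the pseudoautosomal region, was 10.92, 11.22 and 10.70 in off arrays and 10.31, 10.17 and 9.56 in on arrays (-0.94 ± 0.28), while Nnt, Glo1 and Apobec3 differed by 0.18, 0.31 and -0.04.

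**Figure D4:**
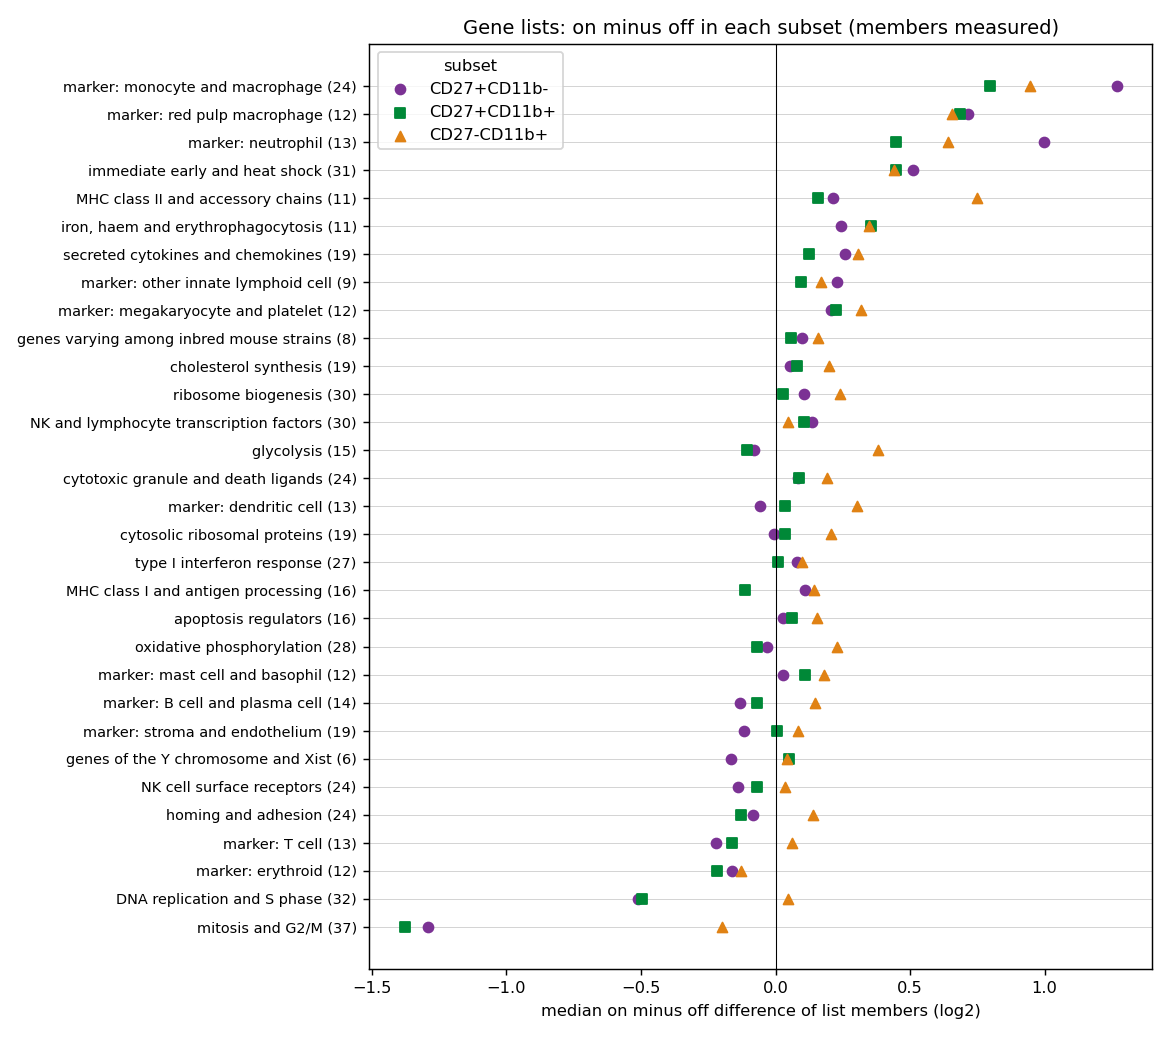
Median on minus off difference (x axis, log2) of each gene list (y axis, with the number of measured members) in CD27+CD11b- (purple circles), CD27+CD11b+ (green squares) and CD27-CD11b+ (orange triangles). The monocyte and macrophage list stands highest at 0.80 to 1.27 and the mitosis list lowest at -1.38 to -0.20, with its CD27-CD11b+ value near the other lists.

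Lists of general metabolism had small median differences. The medians were 0.08 for cytosolic ribosomal proteins, 0.12 for ribosome biogenesis, 0.04 for oxidative phosphorylation, 0.13 for cholesterol synthesis and 0.11 for glycolysis. Ribosome biogenesis (0.11, 0.03 and 0.24) and cholesterol synthesis (0.05, 0.08 and 0.20) had medians above 0 in all 3 subsets, whereas the glycolysis list was -0.08 and -0.11 in the CD27+ subsets and 0.38 in CD27-CD11b+. The iron and haem list was higher, at 0.24, 0.35 and 0.35 in the subsets, with 6 of 11 members higher and 0 lower in all 3. Secreted cytokines and chemokines had a median of 0.20, with 9 of 19 higher and 3 lower. Over all genes 20.7% were higher and 13.9% lower in all 3 subsets. Medians were 0.12 for transcription factors, 0.05 for apoptosis regulators and 0.06 for MHC class I genes. Among markers of other cells they were 0.18 for other innate lymphoid cells, 0.18 for megakaryocytes and platelets, 0.01 for mast cells and basophils and -0.01 for stroma. Of 12 measured members of the platelet list, 7 were higher and 2 lower in all 3 subsets, and only 3 were above background. Within it Ppbp, a platelet chemokine, and Clec1b, a platelet receptor, were higher by at least 0.92 and 0.78 in each subset. Both were dim, with subset means of 4.95, 5.45 and 5.54 for Ppbp and 5.09, 5.27 and 4.92 for Clec1b.

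The CD27-CD11b+ pair had a set of lower genes of its own. In that pair 100 genes (0.55%) were at least 2-fold lower and 74 (0.407%) at least 2-fold higher in the on array. Of the 100 lower genes, 31 were lower in both CD27+ subsets, beside 40.3% of all genes, and their medians there were 0.02 and 0.20. Of the 74 higher genes, 62 were higher in both CD27+ subsets, beside 28.1% of all genes, with medians of 1.17 and 0.94. Among the lower ones, chosen after their values were seen, were Bcl2, the founding inhibitor of apoptosis, at 11.51 in the off and 9.16 in the on array, Spopl at 8.34 and 5.17, and the kinase Tnik at 9.22 and 7.13. In the CD27+ subsets these 3 genes differed by -0.30 to 0.28.

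Control probe sets, outside the named ones, also differed between on and off arrays. The actin controls for the 3' and 5' ends of the transcript differed by 1.53, 0.96 and 1.05 log2 units in off arrays and 2.41, 1.98 and 0.91 in on arrays, and the GAPDH controls by 2.93, 2.62 and 2.60 against 3.35, 3.05 and 2.67. The signal was thus more weighted to the 3' end in on arrays of the CD27+ subsets, and not, by actin, in that of CD27-CD11b+. The 12 poly-A spike probe sets, whose RNA is added to a sample before labelling, averaged 9.13, 8.04 and 8.60 in off arrays and 9.77, 9.35 and 8.74 in on arrays. The 9 hybridisation spike probe sets differed by 0.14, 0.23 and -0.25. A control probe set for the B1 repeat was 11.19, 10.96 and 11.34 in off arrays and 11.19, 11.19 and 10.25 in on arrays, so that the on array of CD27-CD11b+ alone was low. The part of these measures in the gene differences was not tested.

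**Figure D5:**
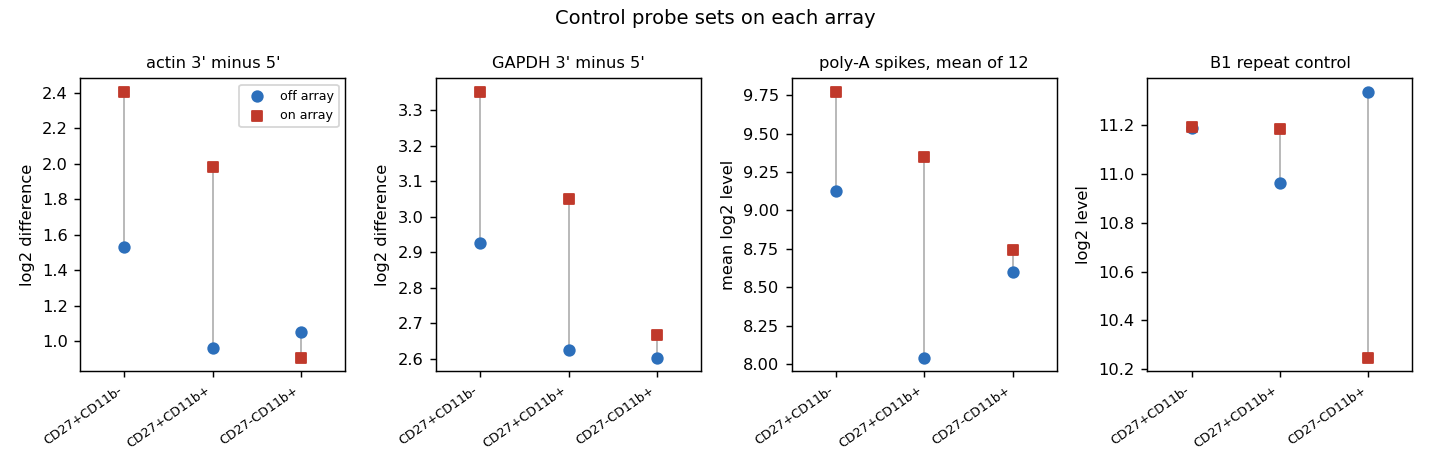
Control measures (y axes, log2) on each array by subset (x axis): the 3' minus 5' difference of the actin and GAPDH controls, the mean of 12 poly-A spike probe sets and the B1 repeat control, with off arrays as blue circles and on arrays as red squares. The first 3 measures are apart in the CD27+ subsets and close together in CD27-CD11b+, and the B1 control shows the reverse; the y axes do not start at 0.

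Whether the genes of the division also differed between the subsets can be tested, because each subset holds 1 on and 1 off array. A limma F test over the subsets was run with the division in the model. Of 34945 named probe sets, 657 (1.88%) passed a Benjamini-Hochberg adjusted p of 0.05. Among the 13542 with a subset mean above background, 491 of these passed (3.63%). Of the 48 probe sets that followed the division, all chosen above background, 6 passed (12.5%). These were in Pclaf (adjusted p = 0.00312; subset means 9.49, 8.46 and 6.89), Ifitm1 (adjusted p = 0.00447; 7.54, 5.88 and 5.54), Maff (adjusted p = 0.00600; 9.43, 9.24 and 7.72), Mid1, Marcksl1 and Nfkbiz. Pclaf, Ifitm1 and Maff, a small partner of AP-1 type factors, were thus highest in CD27+CD11b- and lowest in CD27-CD11b+. H2-Aa, at 9.92, 10.02 and 9.93, did not pass (adjusted p = 0.919), nor did Rbm45 or Tanc1. The arrays were divided on these same data, and probe sets chosen for 3 like differences have a small remainder in this model, so these p-values may be too small. Without the division in the model each of the 6 lost its call, with adjusted p from 0.264 to 0.708. The series design calls the 2 replicates of a subset independent without naming separate animals or sorts, so the spread behind the p-values may be technical.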

How the data were processed

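Affymetrix mouse whole-genome expression arrays of 6 samples were used. The authors deposited log2 values for 45101 probe sets, and RMA is named in the submitters' processing notes, with no version or probe set definition given in the sources used here. Since RMA gives all arrays 1 distribution of values, a shift of most genes together would not be seen, and differences of dim genes shrink. Of the probe sets 64 were controls, 34945 had 1 gene symbol, 932 several and 9160 none in the array annotation. Genes (18193) took the values of their brightest probe set on average. Array medians lay between 5.26 and 5.36.

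Samples were grouped by title and divided by the rule given in the report. Differences were taken within subsets in Python 3.11.15, and the F test used limma 3.58.1 in R 4.3.3 with 2 residual and 5.04 prior degrees of freedom; both were tested on simulated data. Named genes were the 20 with the largest smallest difference in each direction, up to 4 members of each list, sorting and identity markers and controls; the genes below 2-fold are named only in part. Members and lists were chosen with earlier results of these data known. Promoters came from RefSeq (GRCm38.p6). The labels do not say whether replicate numbers of the titles pair the arrays. Deviations of replicate 1 correlated at 0.731, -0.282 and -0.140 between subsets. These are the correlations of the on minus off differences, with the sign turned where CD27-CD11b+ enters. They cannot show whether arrays of 1 number share a sort or a day.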

Additional observations from a re-analysis of the deposited data

Results flagged for a closer look

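Above background, 2 genes were at least 2-fold apart in both CD27+ subsets and at least 2-fold apart the other way in CD27-CD11b+. Cdkn1b, the cell cycle inhibitor p27, was lower in on arrays of CD27+CD11b- (-1.02) and CD27+CD11b+ (-1.69) and higher in that of CD27-CD11b+ (1.46) on probe set 1419497_at. On its second probe set the differences were -0.06, -0.25 and 0.13. Dennd4a was higher in on arrays of CD27+CD11b- (1.05) and CD27+CD11b+ (1.34) and lower in that of CD27-CD11b+ (-1.40) on probe set 1446558_at, while its second probe set differed by 0.57, 0.60 and 0.04. With 1 pair of arrays per subset, the difference between subsets was not tested.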

How the results depend on the processing

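At 1.5-fold in every subset 165 named probe sets were higher and 30 lower in on arrays, against 42 and 6 at 2-fold, and at 3-fold 4 were higher and 1 lower. Without probe sets named x_at, s_at or a_at 23 were higher. With 32 added to the linear values before the logarithm 20 were higher and 3 lower, since the addition shrinks differences of dim probe sets. Leaving out 1 subset's pair gave 49 to 114 higher and 8 to 70 lower, with both highest counts without the CD27-CD11b+ pair. The immediate early and heat shock list had a median difference of 0.46, which became 0.36 over the mean of all probe sets of a gene and 0.35 with 32 added, and ranged from 0.39 to 0.52 when a pair was left out. The red pulp macrophage list had 0.74, which became 0.66 over all probe sets, 0.48 with 32 added and 1.39 over members above background, with 0.73 to 0.78 when a pair was left out. Over members above background the monocyte and macrophage median was 1.35 against 1.04, and the neutrophil median 1.41 against 0.60. The interferon median was 0.0037 over all probe sets, against 0.06. The cause of these moves was not tested. The signs of the named genes' differences were those reported in all 211 pairs of gene and setting. These genes were chosen for 1 sign in all 3 subsets, so leaving out a pair or adding 32 could not turn a sign. Only other probe sets of the same genes could readily differ. All 11 of those above background had the same sign, and those below it, such as the second of Fam172a, were not counted.

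In the F test over subsets, 657 named probe sets passed with the division in the model and 222 without it. With the replicate number as a block 201 passed, and the labels do not say whether the numbers pair the arrays. With 32 added 30 passed, in a fit to the probe sets above background alone 452, and with 1 probe set per gene 874. Leaving out 1 array gave 266 to 4376: 315 and 266 without replicate 1 or 2 of CD27+CD11b-, 598 and 632 without those of CD27+CD11b+, and 2759 and 4376 without those of CD27-CD11b+. The cause was not tested. With 2 arrays per subset, differences below 2-fold could be missed against the spread between arrays. Some passed, such as Hmgb3 with subset means of 8.26, 8.09 and 7.29 (F test adjusted p = 0.0392). Genes near the background of 6.67 have compressed differences.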

Other observations

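Outside the probe sets with 1 gene symbol, a few more followed the division by the 2-fold rule in all 3 subsets. That of the beta globin genes is given above. A probe set shared by 3 genes of the Bcl2a1 family, inhibitors of apoptosis in leukocytes, was 8.41, 7.45 and 7.63 in off arrays and 9.55, 8.88 and 9.07 in on arrays. The probe set shared by Apol7c and a predicted gene was higher by 2.03 on average, and that shared by Sytl3, a regulator of vesicle release, and its predicted neighbours by 1.59. Of the probe sets without a symbol, and beside those of the rule, 1449455_at was higher by 1.19. Those lower in on arrays were 1457449_at (-1.96), 1418493_a_at (-1.44), 1458516_at (-1.37) and 1436853_a_at (-1.35), each as a mean difference over the 3 subsets. These values are descriptions, since the division was read from the same arrays.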
